A study of Mus musculus with 12 samples.

Results

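The Notch receptors Notch1, Notch2 and Notch3, the ligands Jag1, Jag2 and Dll1, and the target genes Hes1, Hey1 and Nrarp were followed in cultured pancreatic cancer cells of the mouse. They were found as every probe set of the array that the platform annotation assigns to 1 gene symbol only, that symbol being 1 of these 9. All 9 genes were measured, out of 18193 genes with such a probe set, by 16 of the 45037 probe sets tested. The array was an Affymetrix mouse GeneChip, on which a probe set is a group of short oligonucleotides that read the same transcript.

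The 12 arrays fell into 4 groups of 3. Cancer cells called mt-CCs came from tumors of Pdx1-Cre, LSL-Trp53 R172H/+ mice and carried mutant p53. Cancer cells called fl-CCs came from tumors of Pdx1-Cre, LSL-Trp53 fl/+ mice and were null for p53. The other two groups were made from fl-CCs by transfection, either with an empty vector (EV), the PCB6+1 control, or with p53 R175H, the human counterpart of the R172H mutant, and were grown with 0.6 mg/ml G418. In all groups Cre had acted in the Pdx1 lineage of the pancreas, and cells were harvested at 60% confluency. The labels and methods name 1 line for each genotype, so p53 status and every other difference between the mt-CCs and fl-CCs lines cannot be told apart. Likewise the vector, its selection and G418 cannot be told apart in EV cells. The labels name 1 set of cells for each vector. Mutant p53 and any other difference between p53 R175H and EV cells therefore cannot be told apart. The methods describe the 3 arrays of a group as biological triplicates of these cells, so p-values here cover the variation from culture to culture of a line and not that from tumor to tumor.

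Notch signaling passes between touching cells. A ligand of the Jagged or Delta-like family on 1 cell binds a Notch receptor on its neighbor, the receptor is cut by an ADAM protease and then by gamma-secretase, and the freed intracellular domain joins the DNA-binding protein RBPJ to switch on genes such as Hes1, Hey1 and Nrarp. In the pancreas the pathway holds progenitors back from differentiation during development and is known to be reactivated when acinar cells turn into duct-like cells and in pancreatic tumors.

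Promoter windows of 7 of the 9 genes were in the RefSeq promoter table used here (GRCm38.p6), as 8 windows of 300 bases from 250 bases upstream of an annotated start to 50 bases past it. Hes1 and Hey1 had no entry. The letters TGGGAA, the core of the RBPJ site, were searched on both strands and were in 0 of the 8 windows, while 25.6% of all 32851 windows of the table held them. The E-box CANNTG, the class of letters that basic helix-loop-helix proteins bind, was searched after the sequences had been seen, on both strands. It was in 4 of the 8 windows and in 72.3% of all windows. Its form CACGTG, also a CANNTG match, was in 1 of the 8 and in 7.15% of all, and its form CAGCTG was in 3 of the 8 and in 16.3% of all. A match describes letters and not binding. The windows shown are those of the members that were called between mt-CCs and fl-CCs below and have an entry, which are Nrarp (chr2:25180508-25180807, plus strand), Jag1 (chr2:137116471-137116770, minus strand), Jag2 (chr12:112929446-112929745, minus strand) and Dll1 (chr17:15376883-15377182, minus strand, the upstream window of the pair listed for this gene) and Notch1 (chr2:26503773-26504072, minus strand). Each is written 5′ to 3′ on its gene's strand with E-boxes in capitals.
Nrarp: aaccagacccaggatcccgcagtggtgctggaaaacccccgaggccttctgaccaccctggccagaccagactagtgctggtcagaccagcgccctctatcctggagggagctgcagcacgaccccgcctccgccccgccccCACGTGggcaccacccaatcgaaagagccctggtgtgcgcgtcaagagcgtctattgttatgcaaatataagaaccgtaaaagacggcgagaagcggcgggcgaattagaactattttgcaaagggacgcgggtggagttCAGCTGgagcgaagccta
Jag1: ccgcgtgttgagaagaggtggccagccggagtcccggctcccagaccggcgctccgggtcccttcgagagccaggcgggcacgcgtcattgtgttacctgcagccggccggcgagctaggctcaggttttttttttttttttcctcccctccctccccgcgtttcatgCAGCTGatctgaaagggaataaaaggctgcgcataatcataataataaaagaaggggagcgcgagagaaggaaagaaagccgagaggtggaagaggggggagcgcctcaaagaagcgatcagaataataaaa
Jag2: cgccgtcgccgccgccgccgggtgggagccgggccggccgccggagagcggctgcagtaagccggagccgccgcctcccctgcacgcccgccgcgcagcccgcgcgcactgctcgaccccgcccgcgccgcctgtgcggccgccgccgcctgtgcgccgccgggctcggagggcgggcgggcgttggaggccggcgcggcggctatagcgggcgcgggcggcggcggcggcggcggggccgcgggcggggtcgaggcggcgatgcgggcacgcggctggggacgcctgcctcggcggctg
Dll1: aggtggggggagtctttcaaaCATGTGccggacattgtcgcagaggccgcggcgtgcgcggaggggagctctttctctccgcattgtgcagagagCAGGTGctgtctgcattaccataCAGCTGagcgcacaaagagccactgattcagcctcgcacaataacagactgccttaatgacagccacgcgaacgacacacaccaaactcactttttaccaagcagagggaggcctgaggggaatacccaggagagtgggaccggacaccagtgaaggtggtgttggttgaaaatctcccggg
Notch1: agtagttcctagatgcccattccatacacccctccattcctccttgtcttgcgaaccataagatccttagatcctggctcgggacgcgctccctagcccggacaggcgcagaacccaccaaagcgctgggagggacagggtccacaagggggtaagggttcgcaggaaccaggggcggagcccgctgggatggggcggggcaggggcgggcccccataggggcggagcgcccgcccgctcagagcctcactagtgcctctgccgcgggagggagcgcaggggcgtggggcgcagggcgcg
Nrarp held a CACGTG upstream of its start and a CAGCTG past it, Jag1 held a CAGCTG, Dll1 held 3 E-boxes, and Notch1 and Jag2, the latter in a window with a GC content of 86%, held none.

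The deposited values are log2 RMA levels, so a difference of 1 is a doubling. A level under 5 was read as near background. The level of a probe set was compared between groups and never with the level of another probe set. Between arrays of the same group the correlation over all probe sets was 0.994 to 0.9962, and between arrays of different groups it was 0.9594 to 0.9903. Trp53 was not analysed here, so no value checks the genotype labels directly.

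Of the 4 keratins in the ductal list, Krt8, Krt18 and Krt19 were above a level of 12 in both mt-CCs and fl-CCs. Krt8 and Krt18 were called lower in mt-CCs, with differences of -0.36 and -0.34, and Krt19 was not called. Krt7 fell from 12.96 to 8.52 (limma adjusted p = 2.02e-11). Of 13 ductal and epithelial markers measured, 11 had a mean of at least 5 in fl-CCs, 10 in mt-CCs, 10 in EV cells and 11 in p53 R175H cells. Their summed signal on the linear scale was 54420 to 56240 in fl-CCs and 33800 to 36150 in mt-CCs, and it was 52340 to 54840 in EV cells and 45920 to 46540 in p53 R175H cells. Between mt-CCs and fl-CCs, 9 of the 13 were called lower and 1 higher. Epcam fell from 9.78 to 6.88 and Muc1 from 11.21 to 5.74, both cell surface proteins of epithelia. Of 14 fibroblast markers, 9 were called higher in mt-CCs and 0 lower. Their summed signal was 2071 to 2354 in fl-CCs and 5970 to 6659 in mt-CCs. It was 1791 to 1902 in EV cells and 2259 to 2522 in p53 R175H cells. The collagen genes Col3a1 and Col1a1 rose from 3.49 to 9.50 and from 5.59 to 8.74. The growth factor receptor genes Pdgfra and Pdgfrb rose from 4.95 to 6.95 and from 6.11 to 7.37, and the protease gene Mmp2 from 4.65 to 6.85. The fibroblast markers that were not called, Lum, Pdpn, Fap, Postn and Thy1, had means under 5 in both lines. With p53 R175H against EV, 3 of the 13 ductal markers were called higher and 4 lower, and 1 of the 14 fibroblast markers was called higher and 1 lower. Of 9 leukocyte markers 2, Cd68 and Csf1r, reached a mean of 5 in each group, and Ptprc, which marks all leukocytes, stayed under it. Cd68 rose from 5.75 in fl-CCs to 7.66 in mt-CCs (limma adjusted p = 1.48e-07). The summed leukocyte signal was 194.3 to 212.4 in fl-CCs and 347.4 to 351.5 in mt-CCs. Of the 9 leukocyte markers, 1 was called higher in mt-CCs and 1 lower. Of 10 endothelial markers 1 or 2 reached a mean of 5, and Pecam1 and Cdh5 had means under 5 in fl-CCs and mt-CCs. Egfl7 stood at 9.24 in fl-CCs and 8.45 in mt-CCs (limma adjusted p = 0.000125). Of the 10 endothelial markers, 1 was called higher in mt-CCs and 4 lower. Of 10 smooth muscle and pericyte markers 3 to 6 reached a mean of 5, and of 6 acinar markers 1 to 3. These shifts of epithelial, fibroblast and other markers moved with the comparison of mt-CCs with fl-CCs that follows. Their part in the Notch results was not tested. In such bulk RNA, fewer cells that express a gene and less RNA per cell cannot be told apart.

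The first comparison asks how the endogenous mutant p53 line differs from the p53-null line. The 3 target genes Hes1, Hey1 and Nrarp were lower in mt-CCs, as was the ligand Jag1 and, by less, Jag2. The ligand Dll1 was higher, and the receptor Notch1 was higher at 1 of its 2 probe sets. Of the 16 probe sets, 2 were called higher and 8 lower at an adjusted p of 0.05 or less in limma, the moderated linear model used throughout, with Benjamini-Hochberg adjustment over all probe sets. Among all probe sets 15.4% were called higher and 15.3% lower. By gene, counting a gene as called when its most significant probe set was, 2 of 9 members were higher and 5 of 9 lower, and among all 18193 genes 22.2% were higher and 21.1% lower. The median difference was -0.33 over the 16 probe sets and -0.02 over all probe sets.

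Hes1, a transcriptional repressor of differentiation genes, had levels of 6.41, 6.29 and 6.21 in the 3 mt-CCs arrays and of 7.03, 7.21 and 7.12 in the 3 fl-CCs arrays. All mt-CCs arrays lay below all fl-CCs arrays. The difference was -0.82 ± 0.09 (SE, n = 3 against 3, limma adjusted p = 1.88e-05), which is 1.76-fold lower. Hey1, a related repressor, stood at 6.57, 6.79 and 6.79 in mt-CCs and at 7.41, 7.45 and 7.31 in fl-CCs. It fell by 0.68 ± 0.13 (limma adjusted p = 0.00146), again with no overlap. Nrarp, which binds the Notch intracellular domain and limits its activity, had 9.45, 9.32 and 9.19 in mt-CCs and 9.82, 9.75 and 9.79 in fl-CCs at its brighter probe set 1417985_at. The difference there was -0.47 ± 0.10 (limma adjusted p = 0.00366). The other probe set, 1417986_at, gave -0.53 ± 0.11 (limma adjusted p = 0.00265), so both read Nrarp as lower.

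Among the ligands, Jag1 had the smallest adjusted p. Its brightest probe set, 1434070_at, read 10.61, 10.50 and 10.44 in mt-CCs and 11.35, 11.39 and 11.48 in fl-CCs. All 3 mt-CCs arrays were low and the groups were far apart for their spread. The difference was -0.89 ± 0.08 (limma adjusted p = 2.91e-06), or 1.86-fold lower. The probe sets 1421106_at and 1421105_at gave -1.23 ± 0.08 and -0.94 ± 0.12 (limma adjusted p = 2.23e-07 and 4.95e-05), so all 3 probe sets of Jag1 fell. Jag2, the second Jagged ligand, read 7.44, 7.31 and 7.53 in mt-CCs and 7.88, 7.78 and 7.67 in fl-CCs at 1426431_at. The groups did not overlap, and the difference of -0.35 ± 0.11 was called (limma adjusted p = 0.0278). That call did not hold without mt-CCs replicate 1 (adjusted p = 0.0562), mt-CCs replicate 2 (0.1), fl-CCs replicate 1 (0.0912) or fl-CCs replicate 2 (0.0686), and the other probe set, 1426430_at, at -0.31 ± 0.13, was not called (limma adjusted p = 0.0945). Dll1, the Delta-like ligand, went the other way. It stood at 7.75, 7.81 and 7.51 in mt-CCs and at 6.29, 6.41 and 6.71 in fl-CCs. The rise was 1.22 ± 0.18 (limma adjusted p = 0.000234), or 2.32-fold, with every mt-CCs array above every fl-CCs array.

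The receptors were less uniform. Notch1 rose at its brighter probe set, 1418634_at, from 8.76, 8.86 and 8.74 in fl-CCs to 9.43, 9.50 and 9.53 in mt-CCs, a difference of 0.70 ± 0.09 (limma adjusted p = 9.12e-05). Its second probe set, 1418633_at, read 7.20, 7.57 and 7.38 in fl-CCs and 7.41, 7.54 and 7.21 in mt-CCs. Those groups overlapped, with a difference of 0.00 ± 0.11 (limma adjusted p = 0.983), so the rise of Notch1 was read by 1 of its 2 probe sets. Which parts of the transcript they read was not analysed here. Notch2, the paralog with overlapping functions in the pancreas, read 12.09, 12.43 and 12.46 in mt-CCs and 12.21, 12.33 and 12.32 in fl-CCs at 1455556_at. The difference was 0.04 ± 0.10 (limma adjusted p = 0.819), and at 1451889_at it was 0.21 ± 0.13 (limma adjusted p = 0.259). Notch3, a receptor best known from smooth muscle and pericytes, was near background at both probe sets, from 3.17 to 4.49 over all 12 arrays, and no difference is given for it.

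**Figure D1:**
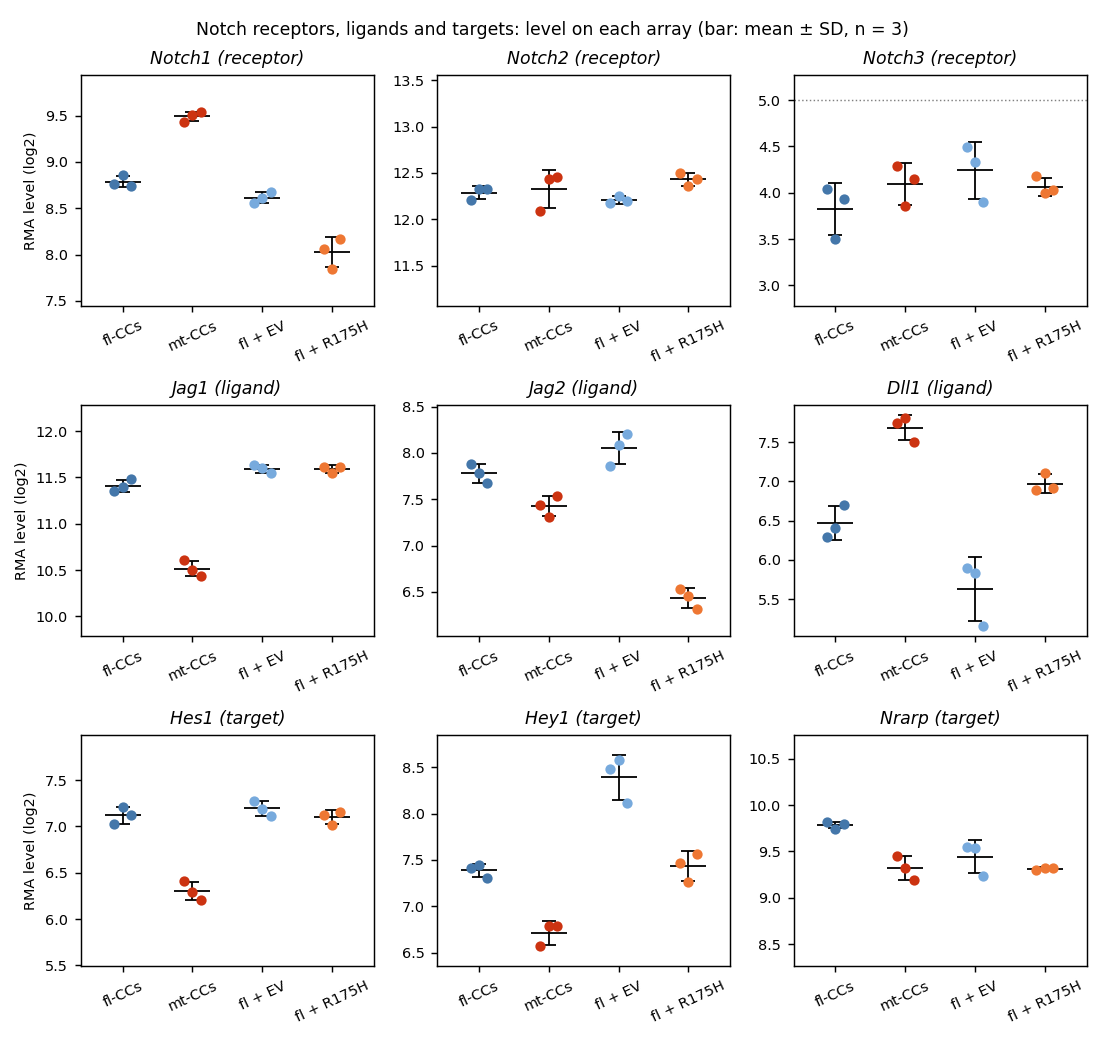
RMA level on the log2 scale (vertical axis) of the 9 genes, each read by its brightest probe set, on the 3 arrays of each group (points), with the mean and SD as black bars; each panel has its own axis range and the dotted line marks the level of 5 under which a probe set was read as near background. The mt-CCs points of Hes1, Hey1 and Jag1 lie below those of the 3 other groups, while Notch1 and Dll1 are highest in mt-CCs.

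The second comparison sets fl-CCs transfected with p53 R175H against fl-CCs transfected with the empty vector. In fl-CCs with p53 R175H the ligand Jag2 and the target Hey1 were lower than in EV cells and Dll1 was higher. Notch1 was lower at 1 of its 2 probe sets. Of the 16 probe sets, 1 was called higher and 4 lower, where 10.2% of all probe sets were called higher and 10.2% lower. By gene this was 1 of 9 higher and 3 of 9 lower, beside 15.3% and 15.1% of all genes. The median difference was -0.11 over the 16 probe sets and -0.01 over all probe sets.

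Jag2 moved most. At 1426431_at it read 6.53, 6.46 and 6.32 in p53 R175H cells and 7.86, 8.08 and 8.20 in EV cells, with all R175H arrays more than a log2 unit below all EV arrays. The difference was -1.62 ± 0.11 (limma adjusted p = 1.1e-06), or 3.06-fold lower. At 1426430_at it was -0.92 ± 0.13 (limma adjusted p = 0.000343). Dll1 read 6.89, 7.11 and 6.92 with p53 R175H and 5.89, 5.83 and 5.16 with EV. The third EV array was lower than the other two, and the groups stayed apart. The rise was 1.35 ± 0.18 (limma adjusted p = 0.00026), or 2.54-fold. Jag1, by contrast, read 11.62, 11.54 and 11.62 with p53 R175H and 11.63, 11.61 and 11.55 with EV. The groups overlapped, and the difference was 0.00 ± 0.08 (limma adjusted p = 0.999), with a 95% confidence interval of -0.17 to 0.17. At its other probe sets it was -0.03 ± 0.08 and 0.10 ± 0.12, neither called.

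Of the targets, Hey1 read 7.47, 7.26 and 7.57 with p53 R175H and 8.48, 8.58 and 8.12 with EV. It fell by 0.96 ± 0.13 (limma adjusted p = 0.000248), or 1.94-fold, without overlap. Hes1 read 7.12, 7.01 and 7.16 with p53 R175H and 7.27, 7.19 and 7.12 with EV, and the groups overlapped. Its difference was -0.10 ± 0.09 (limma adjusted p = 0.533), with a 95% confidence interval of -0.29 to 0.10. Nrarp read 9.30, 9.32 and 9.32 with p53 R175H and 9.55, 9.54 and 9.24 with EV at 1417985_at. The third EV array fell below the R175H arrays, and the difference was -0.13 ± 0.10 (limma adjusted p = 0.444). At 1417986_at the Nrarp difference was 0.01 ± 0.11 (limma adjusted p = 0.965). Of the 3 targets that were lower in mt-CCs, Hey1 was the one called lower with p53 R175H.

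Notch1 read 8.06, 7.85 and 8.17 with p53 R175H and 8.56, 8.61 and 8.67 with EV at 1418634_at. It fell by 0.59 ± 0.09 (limma adjusted p = 0.000813), the opposite direction to mt-CCs. At 1418633_at the groups did not overlap either, but the difference of -0.22 ± 0.11 was not called (limma adjusted p = 0.225). Notch2 read 12.50, 12.35 and 12.44 with p53 R175H and 12.17, 12.25 and 12.20 with EV at 1455556_at, a difference of 0.22 ± 0.10 (limma adjusted p = 0.167). At 1451889_at it was 0.17 ± 0.13 (limma adjusted p = 0.433).

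**Figure D2:**
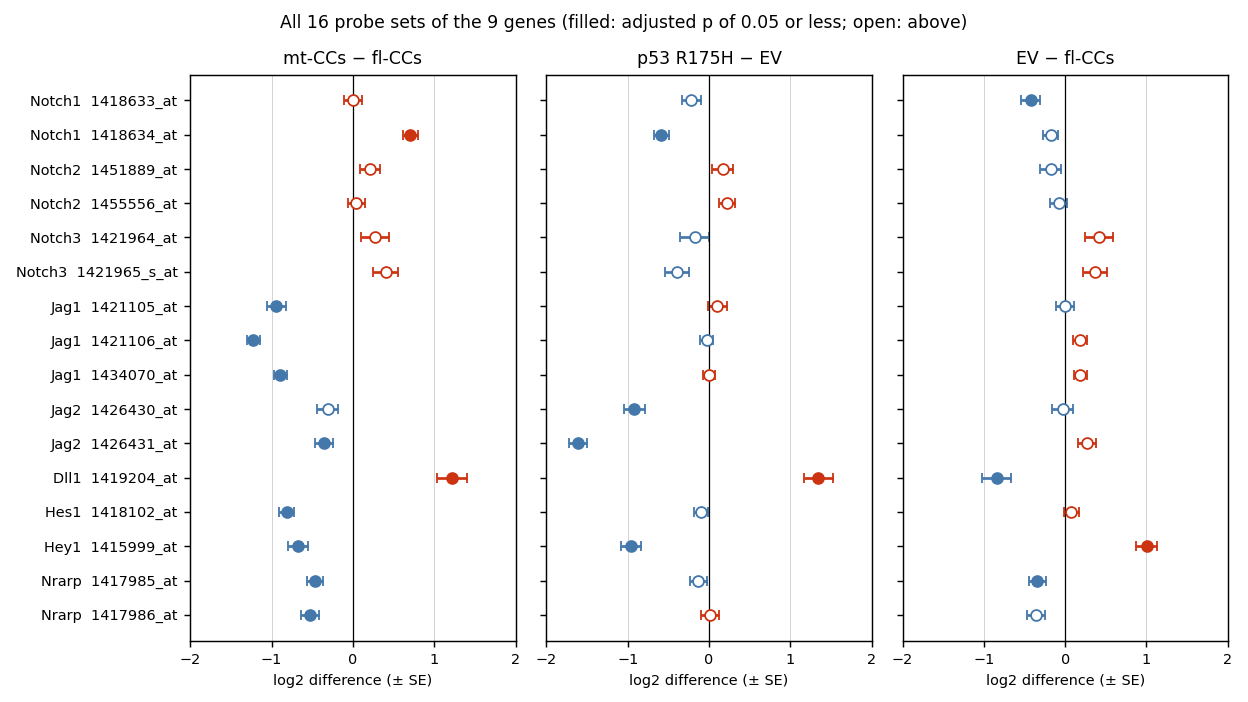
Differences on the log2 scale (horizontal axis, with the standard error as bars) at each of the 16 probe sets, for mt-CCs minus fl-CCs, p53 R175H minus EV and EV minus fl-CCs; red marks a positive and blue a negative difference, filled points have an adjusted p of 0.05 or less and open points do not. Jag1 is low in the left panel alone, Jag2 is lowest in the middle panel, and Dll1 and Hey1 have opposite signs in the middle and right panels, which share the EV arrays.

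The third comparison sets EV cells against the untransfected line they came from. Hey1 rose and Dll1 fell in EV cells, and these 2 genes were also called with p53 R175H against the same EV arrays. Of the 16 probe sets, 1 was called higher and 3 lower, where 6.45% of all probe sets were called higher and 5.66% lower. Hey1 was 8.48, 8.58 and 8.12 in EV cells against 7.41, 7.45 and 7.31 in fl-CCs, a rise of 1.00 ± 0.13 (limma adjusted p = 0.000351). Dll1 was 5.89, 5.83 and 5.16 against 6.29, 6.41 and 6.71, and fell by 0.84 ± 0.18 (limma adjusted p = 0.00994). Fitted on the 6 arrays of these groups alone, the adjusted p for Dll1 was 0.0504. The other two calls were smaller and depended on single arrays. Nrarp at 1417985_at, at -0.34 ± 0.10 (limma adjusted p = 0.0472), was not called without any 1 of the 6 arrays, with adjusted p from 0.0543 without EV replicate 1 to 0.169 without EV replicate 3. The other Nrarp probe set, 1417986_at, gave -0.36 ± 0.11 without overlap and was not called (limma adjusted p = 0.051). It was called without fl-CCs replicate 1 (limma adjusted p = 0.043) and with array weights (limma adjusted p = 0.0217). Notch1 at 1418633_at, at -0.43 ± 0.11 (limma adjusted p = 0.029), was called without fl-CCs replicate 1 but not without any other array, with adjusted p from 0.0538 without EV replicate 2 to 0.108 without fl-CCs replicate 2. Jag1, Jag2, Hes1, Notch2 and Notch3 were not called between EV cells and fl-CCs at any probe set.

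Because EV cells differed from their parental line, the level of each gene was also read in all 4 groups. Hey1 with p53 R175H, at a mean of 7.43, overlapped parental fl-CCs at 7.39, with EV cells above both at 8.39 and mt-CCs below both at 6.71. For Dll1 the order was mt-CCs at 7.69, p53 R175H at 6.97, fl-CCs at 6.47 and EV at 5.63, with no overlap between neighbors. Jag2 was highest in EV cells at 8.05 and fl-CCs at 7.78, which overlapped, then mt-CCs at 7.43, and lowest with p53 R175H at 6.43. Notch1 at 1418634_at ran from mt-CCs at 9.49 through fl-CCs at 8.79 and EV at 8.61 to p53 R175H at 8.02, again with no overlap between neighbors. For Jag1 the p53 R175H and EV cells overlapped at 11.59, fl-CCs followed at 11.41 and mt-CCs were lowest at 10.52. For Hes1 the 3 groups of the fl-CCs line overlapped, between 7.10 and 7.19, and mt-CCs stood below them at 6.30. Nrarp was highest in fl-CCs at 9.79, and EV cells at 9.44, mt-CCs at 9.32 and p53 R175H cells at 9.31 overlapped in turn. Notch2 overlapped between all neighbors, from 12.21 to 12.43.

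**Figure D3:**
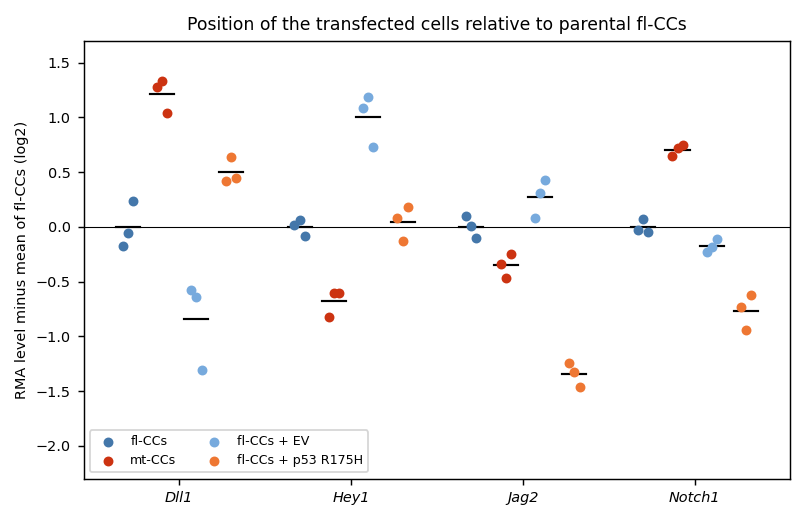
Levels of Dll1, Hey1, Jag2 and Notch1 on each array (points) and their group means (lines), as the RMA level minus the mean of parental fl-CCs on the log2 scale (vertical axis). For Dll1 the EV cells lie below fl-CCs and the p53 R175H cells above them, for Hey1 the EV cells lie above and the p53 R175H cells at the fl-CCs level, and Jag2 and Notch1 in p53 R175H cells lie below all fl-CCs arrays.

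The differences seen in the endogenous and the transfected setting were then set against each other in a test of (mt-CCs minus fl-CCs) minus (p53 R175H minus EV). Effect here means such a difference between groups of cells, and its cause was not tested. Of the 16 probe sets 9 were called, beside 26.8% of all probe sets. The effects differed for Notch1 at 1418634_at, by 1.29 ± 0.13 (limma adjusted p = 1.43e-05), where the 2 settings had opposite directions. At its other probe set, 1418633_at, the difference was 0.22 ± 0.16 and was not called (limma adjusted p = 0.367). Jag1 differed by -0.89 ± 0.11 at 1434070_at (limma adjusted p = 7.99e-05) and was called at all 3 of its probe sets. Jag2 differed by 1.26 ± 0.15 at 1426431_at (limma adjusted p = 6.18e-05), the fall being larger with p53 R175H. Its second probe set was called as well, at 0.61 ± 0.18 (limma adjusted p = 0.0258), but not without mt-CCs replicate 2 (0.0625), fl-CCs replicate 1 (0.0599), EV replicate 1 (0.0528), EV replicate 2 (0.0604) or p53 R175H replicate 1 (0.0638). Hes1 differed by -0.72 ± 0.13 (limma adjusted p = 0.00104). For Nrarp the difference was called at 1417986_at, at -0.54 ± 0.15 (limma adjusted p = 0.0214), and not at the brighter 1417985_at, at -0.33 ± 0.14 (limma adjusted p = 0.112). Without fl-CCs replicate 3, EV replicate 3 or p53 R175H replicate 2 the call at 1417986_at was lost, at adjusted p = 0.0517, 0.0538 and 0.0556. The remaining call was Notch3 at 1421965_s_at, which was near background on every array. For Dll1, higher with mutant p53 in both settings, the difference of the effects was -0.13 ± 0.26 (limma adjusted p = 0.778), and for Hey1, lower in both, it was 0.28 ± 0.18 (limma adjusted p = 0.306). The 95% confidence intervals of these differences, -0.69 to 0.43 for Dll1 and -0.11 to 0.68 for Hey1, leave room for unequal effects. Hey1 was lower with p53 R175H, at 7.43, than in EV cells at 8.39, but overlapped parental fl-CCs at 7.39. Dll1 stood at 6.97 with p53 R175H, 6.47 in parental fl-CCs and 5.63 in EV cells. There EV cells were called lower than fl-CCs (limma adjusted p = 0.00994), so the Dll1 effect with p53 R175H was measured from a lowered control. A direct test of p53 R175H cells against fl-CCs was not run.

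The wider pathway was read from 66 other genes, of which 61 were measured. In mt-CCs 17 of the 61 were called higher and 12 lower, beside 22.2% and 21.1% of all genes, and 2 of the 29, Dner and Aak1, were near background in both groups. The median difference was 0.06 over the list and -0.01 over all genes. By role, glycosylation enzymes, which add the sugars that tune how receptors bind ligands, had 5 of 8 higher and 0 lower. Proteases and gamma-secretase subunits had 4 of 8 higher and 2 lower. Endocytosis factors and ubiquitin ligases had 3 of 15 higher and 4 lower, the nuclear complex had 2 of 7 higher and 0 lower, and corepressors had 2 of 9 higher and 4 lower. Of 8 further targets 0 were higher and 1 was lower. Of 5 further ligands 1 was higher and 1 lower, and Notch4 was not called.

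Dtx1, a Deltex ubiquitin ligase that acts on Notch and is itself known as a Notch target in lymphocytes, had the largest rise of the list. It read 9.04, 8.28 and 8.43 in mt-CCs and 5.48, 5.42 and 5.75 in fl-CCs at 1458643_at. The difference was 3.03 ± 0.17 (limma adjusted p = 4.37e-08), and its other probe set, 1425822_a_at, rose from 4.31 to 6.19. The Deltex partner Dtx3l rose by 1.22 ± 0.09 (limma adjusted p = 7.43e-07). Pofut1, the fucosyltransferase that Notch receptors need to bind ligand, rose by 0.93 ± 0.11 at 1443881_at (limma adjusted p = 2.52e-05), while its other 2 probe sets were not called. The falls were led by Furin, the convertase that trims Notch receptors on their way to the surface, at -0.85 ± 0.10 (limma adjusted p = 2.85e-05). Tle4, a Groucho corepressor recruited by Hes proteins, differed by -0.79 ± 0.10 (limma adjusted p = 4e-05), and Mib1, the ubiquitin ligase that lets ligands signal by endocytosis, by -0.73 ± 0.15 (limma adjusted p = 0.00248) at its dimmest probe set. The brighter Mib1 probe sets, 1451818_at and 1454740_at, were called with smaller differences of -0.37 and -0.31.

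With p53 R175H against EV, 11 of the 61 were called higher and 11 lower, beside 15.3% and 15.1% of all genes. The median difference was -0.02 over the list and -0.03 over all genes. Further targets had 0 of 8 higher and 4 lower. Those lower were Myc, Ccnd1, Sox9 and Cdkn1a, while Hes5, Hes7, Hey2 and Heyl were not called. Hey2, Heyl and the most significant Hes5 probe set, 1456010_x_at, were near background. The other Hes5 probe set, 1423146_at, had means of 5.49 in both groups and was not called either. In EV cells against fl-CCs the further targets had 3 of 8 higher and 0 lower. Called there were Ccnd1 and, at probe sets near background, Heyl and Sox9. The brighter Sox9 probe sets, 1424950_at and 1451538_at, were not called between EV cells and fl-CCs (limma adjusted p = 0.477 and 0.221). Neither were Myc and Cdkn1a (limma adjusted p = 0.577 and 0.122). With p53 R175H, glycosylation enzymes had 3 of 8 higher and 1 lower, and the nuclear complex had 2 of 7 higher and 1 lower. Tle4 read 9.19, 9.03 and 8.91 with p53 R175H and 10.49, 10.53 and 10.49 with EV, a difference of -1.46 ± 0.10 (limma adjusted p = 8.75e-07). Its probe set 1425650_at gave -1.59, and the remaining probe set, near background, was not called. Cdkn1a, the cell cycle inhibitor p21, which p53 itself also controls, fell by 1.17 ± 0.28 (limma adjusted p = 0.0105) and the G1 cyclin gene Ccnd1 by 0.72 ± 0.10 (limma adjusted p = 0.000299). The mean of Cdkn1a was 8.74 with p53 R175H, 9.91 with EV and 9.18 in parental fl-CCs. The fl-CCs arrays, from 8.45 to 9.92, overlapped those of the other groups. Ccnd1 stood at 8.92, 9.65 and 9.31 in that order, and EV cells were called higher than fl-CCs (limma adjusted p = 0.0453). Pofut1 read 9.81, 9.84 and 10.09 with p53 R175H and 8.83, 8.90 and 8.90 with EV at 1443881_at. It rose by 1.03 ± 0.11 (limma adjusted p = 3.28e-05), again at 1 of 3 probe sets. The mean of Pofut1 there was 8.88 with EV and 9.34 in parental fl-CCs, and EV cells were called lower (limma adjusted p = 0.0136). The ubiquitin ligase gene Itch rose by 0.84 ± 0.08 (limma adjusted p = 1.15e-05), and Tle1, a relative of Tle4, rose by 0.55 ± 0.11 (limma adjusted p = 0.00333). The mean of Tle1 there was 7.62 with p53 R175H, 7.07 with EV and 7.74 in parental fl-CCs, and EV cells were called lower than fl-CCs (limma adjusted p = 0.00173). The other 3 probe sets of Itch, near background, were not called.

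**Figure D4:**
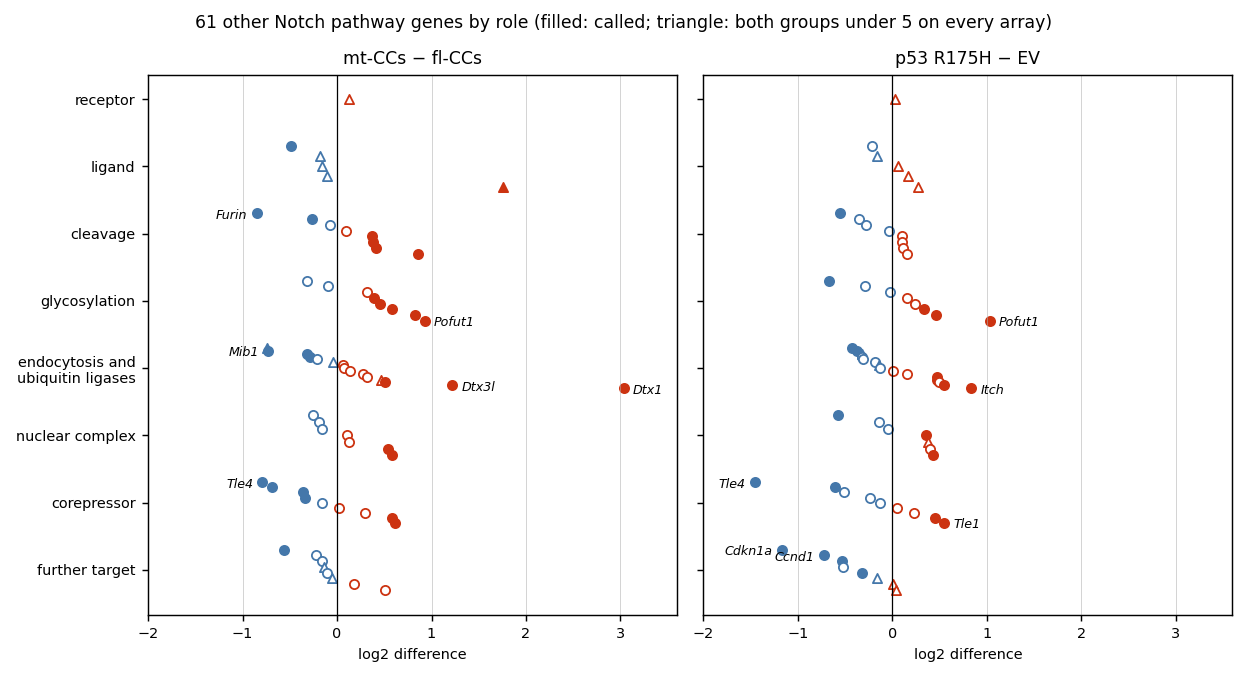
Log2 difference (horizontal axis) of the 61 other pathway genes measured, by role (rows), for mt-CCs minus fl-CCs and p53 R175H minus EV, each read by its most significant probe set; filled points were called, triangles were under 5 on every array of both groups, and red and blue mark higher and lower. Dtx1 stands apart on the right in mt-CCs at 3.03, Tle4 is lowest with p53 R175H at -1.46, and Pofut1 is filled on the right of both panels.

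Between EV cells and fl-CCs, 9 of the 61 were called higher and 9 lower, beside 10.4% and 9.2% of all genes, and 2 of the 18, Heyl and Sox9, were called at probe sets near background. The largest falls were those of Neurl1b, a ubiquitin ligase for ligands, at -1.45 ± 0.15 (limma adjusted p = 8.26e-05), and of Dtx4, a Deltex relative, at -1.37 ± 0.09 (limma adjusted p = 1.76e-06). Dtx1 was near background in EV cells and at least 0.55 lower on the log2 scale (limma adjusted p = 0.0121), a call that was lost without fl-CCs replicate 3 (adjusted p = 0.05003). The largest rises were 0.77 ± 0.16 for the fringe glycosyltransferase gene Lfng (limma adjusted p = 0.00876), 0.61 ± 0.13 for Tle3 (limma adjusted p = 0.00932) at 1 of its 4 probe sets, and 0.55 ± 0.13 for the acetyltransferase gene Kat2a (limma adjusted p = 0.0137). The other probe set of Lfng, at 0.33 (limma adjusted p = 0.177), and the other 2 of Kat2a, at 0.28 and 0.29 (limma adjusted p = 0.102 and 0.165), were not called. The Kat2a call was lost without fl-CCs replicate 2 (adjusted p = 0.0553).

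The 3 members with the widest range of group means were Dll1, Hey1 and Jag2. The genes whose profile over the 12 arrays was most like theirs were found by the root mean square of the log2 differences after each profile was centered on its own mean, at each gene's brightest probe set and with no test. Dll1 was followed most closely by A030001D20Rik at 0.21, Slc2a9 at 0.23 and Plpp1 at 0.27. Hey1 was followed by Nabp1 at 0.17, Enkur at 0.20 and Isoc1 at 0.20. Jag2 was followed by Ildr2 at 0.17, Lss at 0.18 and Pcyt2 at 0.19. Ildr2, for example, had means of 10.24 in fl-CCs, 10.17 in mt-CCs, 10.73 in EV cells and 9.04 with p53 R175H. These arrays share their groups, so genes that differ between the groups in the same way are alike by this measure.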

How the data were processed

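RNA of cultured pancreatic cancer cells was measured on 12 Affymetrix mouse arrays. The authors' notes name RMA with no version, and the deposited values are its log2 summaries of each probe set. Background correction and scaling had therefore been done before deposit, and the number of arrays limits the precision.

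From the deposited log2 values, 64 control probe sets were left out and 45037 tested with limma 3.58.1 (lmFit and eBayes, R 4.3.3), in a model of the 4 group means over all 12 arrays with Benjamini-Hochberg adjustment, called at 0.05 or less without a fold limit. The script was tested on simulated data. No filter on low values was used. A member was represented by its brightest probe set and another pathway gene by its most significant probe set, and Python 3.11.15 was used for tables. The platform annotation gave 1 symbol for 34945 probe sets, several for 932 and none for 9160. Named pathway genes are the 3 largest rises and falls called in each comparison with groups that do not overlap and at least 1 array of the brighter group over 5. Dner, Aak1, Heyl, Sox9, Myc, Hes5, Hes7, Hey2 and the markers named were chosen after their values were seen. An allele shared by all groups is not reported here. The members and lists were chosen with earlier results of these data known. Alternatives covered the arrays in the fit, variance model, array weights, replicate block, low and control probe sets, normalization, choice of probe set and each array left out.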

Additional observations from a re-analysis of the deposited data

Results flagged for a closer look

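In the limma test of the difference of the effects, 4 members were called at their brightest probe set. For these the difference of mt-CCs from fl-CCs was unlike that of p53 R175H from EV cells, and its cause was not tested. The value for Notch1 at 1418634_at was 1.29, with that probe set higher in mt-CCs and lower with p53 R175H. At the other Notch1 probe set, 1418633_at, neither effect was called and their difference was 0.22 (limma adjusted p = 0.367). It was -0.89 for Jag1 and -0.72 for Hes1, both lower in mt-CCs and not called with p53 R175H. It was 1.26 for Jag2, lower in both settings and more so with p53 R175H. The call of Jag2 in mt-CCs was lost without some single arrays. Its other probe set, 1426430_at, was not called in mt-CCs (limma adjusted p = 0.0945). Among all probe sets, 26.8% were called in the test of the difference of the effects. Groups of 3 arrays were too small for a test of single outlying arrays.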

How the results depend on the processing

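The counts of members and pathway genes called in mt-CCs against fl-CCs, in p53 R175H against EV and in the difference of the effects stayed within 1.5 times under every alternative run. Between EV cells and fl-CCs, 4 member probe sets were called, 1 with the 6 arrays of these groups alone and 2 to 4 with 1 array left out. There the other pathway genes called were 18, with 11 at the brightest probe set and 11 to 14 with 1 array left out, the fewest without EV replicate 3. With 1 array left out the members numbered 9 to 10 in mt-CCs, 5 with p53 R175H and 8 to 9 in the difference, and the other pathway genes 26 to 28 and 18 to 23. No difference of a member that was called changed sign.

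Replicate numbers did not pair the samples. Deviations of same-numbered arrays correlated at -0.0897 to 0.0582 (18 pairs), and those of different numbers at -0.109 to 0.0857. The replicate block gave 9 of 16 member probe sets in mt-CCs, 5 with p53 R175H, 3 in EV cells and 9 in the difference, and Jag2 in mt-CCs had an adjusted p = 0.0511 and Nrarp in EV cells 0.0532 with it. An intensity trend added calls for Notch2 with p53 R175H (adjusted p = 0.0473) and Jag1 in EV cells (0.0454). Spots, slides and scan dates were not analysed here.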
